A study of Mus musculus and Homo sapiens with 17 samples.

Results

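Cholesterol synthesis and its control were followed through 30 genes, taken by gene name with no threshold on their values. They were 8 genes of the mevalonate and isoprenoid steps, 11 genes of the steps from squalene to cholesterol, 5 genes that control the sterol-responsive transcription factors SREBP, the sterol carrier gene Stard4, and 5 genes of the liver X receptors (LXR) and their targets. All 30 were found by symbol among 54532 named mouse rows, and all 30 human counterparts among 58735 named rows of the A431 table (Cyp51 is CYP51A1 there). Each of them had enough counts to be tested.

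The series holds 17 RNA sequencing libraries and concerns DUSP1, a phosphatase that switches off MAP kinases, in cutaneous squamous cell carcinoma (SCC). The 11 mouse libraries came from C57BL/6-129 mice, and every group had received DMBA, a carcinogen, together with TPA, which promotes tumours. By label, skin and SCC of wild-type (WT) mice gave 3 libraries each, DUSP1 KO papilloma gave 3 and DUSP1 KO SCC gave 2. The 6 human libraries came from A431, an established squamous carcinoma line, with 3 libraries of cells carrying the guide sgRNA_Tomato as control and 3 of cells carrying sgRNA_DUSP1. In each A431 arm 100000 cells were placed in mouse skin and grown for 3 weeks, and the cells were depleted of mouse cells ahead of extraction. The mouse RNA came from whole sections, so every cell type of a section entered it, and a lower level can stand for fewer cells of a type or for less RNA per cell, which cannot be told apart. No WT papilloma was analysed here. The labels give neither the ages and sexes of the mice nor the animal behind each library, nor the kind of Dusp1 allele, nor whether the A431 KO cells were 1 clone. A431 KO replicates 2 and 3 bear the same sample code apart from a running number. Their counts differed beyond sampling noise (chi-square of 5.14 per degree of freedom, between the 3.54 and 7.09 of the closest and farthest control pair), so they were kept as 2 libraries. KO replicate 1 differed more from them, with 13.6 against replicate 2 and 12.3 against replicate 3. Whether replicates 2 and 3 are 1 tumour is not known. The p-values therefore measure the spread between these libraries, which may be technical.

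Cells build cholesterol from acetyl-CoA. The first steps make mevalonate and turn it into isoprenoid diphosphates, which are also the source of the lipid anchors of small GTPases. Squalene is then formed, oxidised and closed into lanosterol, and a row of oxidases, reductases and isomerases trims lanosterol to cholesterol. When sterol in the endoplasmic reticulum is low, SCAP carries SREBP to the Golgi, where it is cut, and the freed fragment switches on the enzyme genes. INSIG proteins hold SCAP back when sterol is high. LXR acts in the opposite direction: bound to oxysterols, it switches on exporters of cholesterol. In the epidermis cholesterol is a building block of the lipid barrier, and sebaceous glands make lipid in quantity.

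The sequences upstream of 3 members are shown because these genes stand for the parts of the pathway that the results turn on: Hmgcs1 as an early enzyme and a classical SREBP target, Insig1 as the brake on SREBP, and Hsd17b7 as a late enzyme. They are the bases from -250 to -51 before the RefSeq start in GRCm38.p6, 200 bases each, read 5′ to 3′ on the strand of the gene, at chr13:119690101-119690300 (plus strand), chr5:28071162-28071361 (plus strand) and chr1:169969256-169969455 (minus strand). Capitals mark TCACNCCAC, a form of the sterol response element, and CCAAT, the box bound by NF-Y, each on either strand.
Hmgcs1: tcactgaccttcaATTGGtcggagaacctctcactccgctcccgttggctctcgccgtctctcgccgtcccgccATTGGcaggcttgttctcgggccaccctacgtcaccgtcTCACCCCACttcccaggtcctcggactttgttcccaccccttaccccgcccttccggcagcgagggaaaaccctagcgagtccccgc
Insig1: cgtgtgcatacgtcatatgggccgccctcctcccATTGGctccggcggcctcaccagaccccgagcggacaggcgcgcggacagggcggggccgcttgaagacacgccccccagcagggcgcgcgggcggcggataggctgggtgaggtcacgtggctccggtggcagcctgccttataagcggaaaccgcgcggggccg
Hsd17b7: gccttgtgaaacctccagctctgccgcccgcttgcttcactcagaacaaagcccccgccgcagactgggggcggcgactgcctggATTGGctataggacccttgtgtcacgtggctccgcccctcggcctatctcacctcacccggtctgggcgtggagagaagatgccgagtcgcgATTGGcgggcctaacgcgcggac
Hmgcs1 held TCACNCCAC with its first base 137 bases before the start and CCAAT at 237 and 176 bases, and the matches did not overlap. Insig1 held CCAAT at 216 bases and Hsd17b7 at 165 and 73 bases. RefSeq promoter windows were found for 25 of the 30 members. Over the 250 bases before the start, TCACNCCAC was in 1 of these 25 genes, Hmgcs1, and in 1.225% of 27025 genes with such windows. CCAAT was in 20 of the 25 members and in 37.49% of these genes. These are matches of letters, and no binding was measured.

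Total counts were 34.4 to 47.9 M (units of 1e6) in mouse libraries and 41.2 to 53.5 M in A431 libraries. Levels are counts per 1e6 counts (CPM) after TMM scaling, and counts of the typical gene varied between libraries of a group by 36.6% in mouse and by 6.11% in A431 (biological coefficient of variation). Transcript of the targeted gene went against the mouse label: Dusp1 was at 73.3, 83.7 and 66.6 CPM in WT SCC and at 139 and 174 CPM in SCC labelled KO. In KO papilloma it was at 109.3 to 128.8 CPM, 1.56-fold above WT SCC without passing the edgeR test (adjusted p = 0.152). WT skin held 52.4 to 109.2 CPM of Dusp1. Every mouse direction below is therefore that of the labels, and KO SCC and KO papilloma mean libraries labelled so. In A431 the label held: DUSP1 was at 471, 467 and 485 CPM in control and 73.6, 71.0 and 77.1 CPM in KO cells. KO SCC replicate 2 stood apart from the other carcinomas in holding 4779 counts of 4 Y chromosome genes, against 0 in KO SCC replicate 1 and all WT SCC libraries, beside 15.3 CPM of Xist. Y chromosome counts were also found in WT skin replicates 1 and 2. The labelled cell type is keratinocytes, and 7 basal keratinocyte markers summed to 35981 to 38356 CPM in WT SCC, while WT skin also held 5030.0 to 6068 CPM of 6 skeletal muscle markers.

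The cholesterol enzymes as a whole were at a higher summed level in the mouse lesions labelled KO than in WT carcinoma or WT skin, and at a slightly lower one in A431 KO than in control cells. Summed over the 19 enzymes, the level was 1989.6, 1467 and 1677 CPM in WT skin (mean 1711 ± 263 (SD, n = 3)) and 1713, 1614 and 1665 CPM in WT SCC (mean 1664 ± 49.4 (SD, n = 3)). In KO papilloma it was 3206, 2611 and 2484 CPM and in KO SCC 3417 and 2821 CPM. The 5 lesions labelled KO thus all lay above the 6 WT libraries, and the WT skin libraries spanned the range of WT SCC. In A431 the sum was 2255, 2254 and 2239 CPM in control cells and 1998, 1951 and 1971 CPM in KO cells, groups that did not overlap. The sum is weighted by the abundant enzymes and carries no test. Mouse and human tables were normalized separately, so levels are not compared across them.

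**Figure D1:**
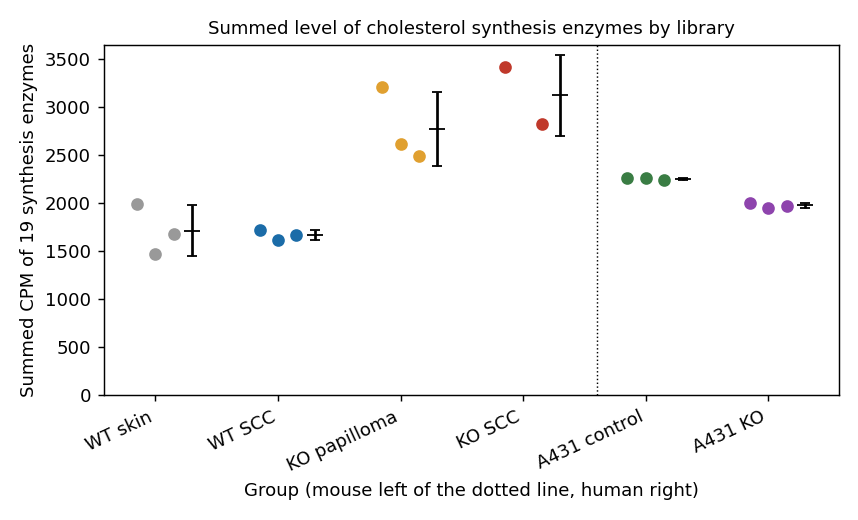
Summed level of the 19 synthesis enzymes (y axis, CPM) in each of the 17 libraries, by group. Circles are libraries, and bars give the group mean and SD. KO SCC sits at 2821 and 3417 CPM, above WT SCC at 1614 to 1713 CPM, and A431 KO sits below A431 control.

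**Figure D2:**
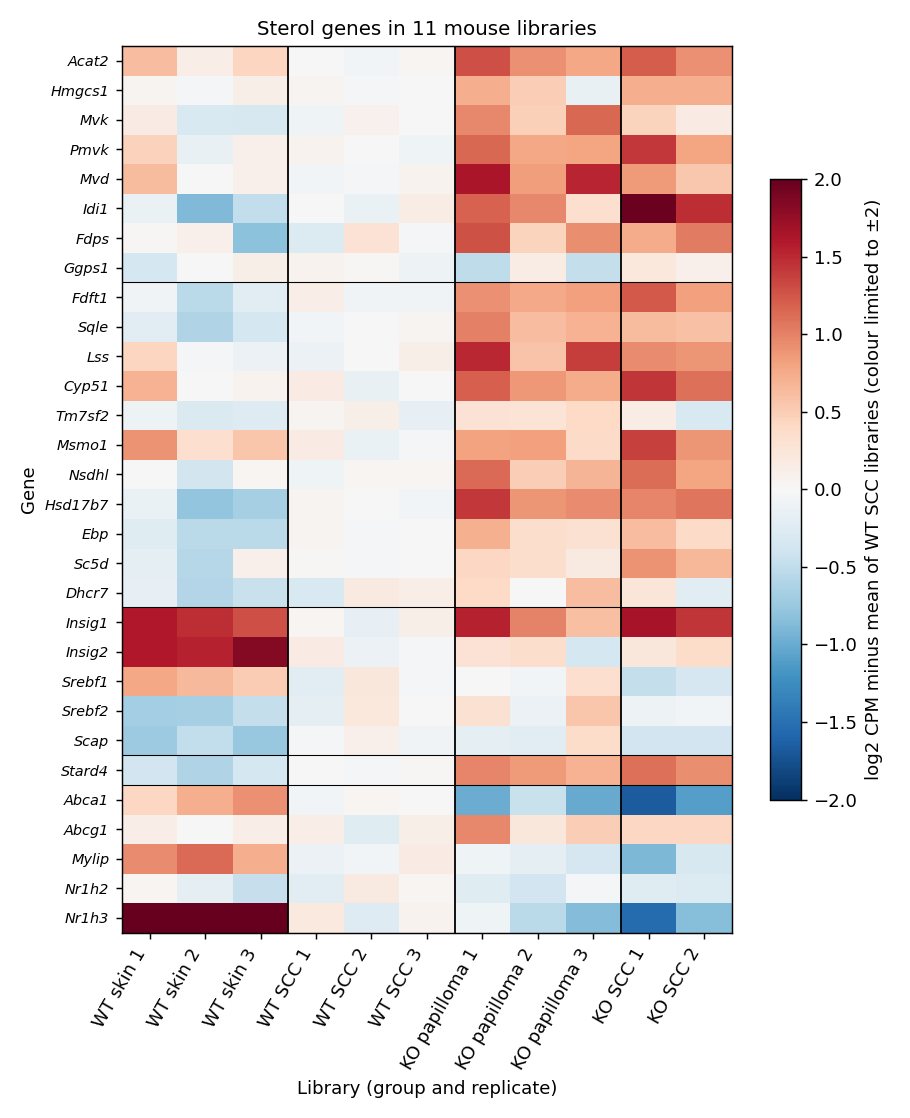
Level of each of the 30 genes (rows, in the order of the pathway) in each of the 11 mouse libraries (columns). Colour gives log2 CPM minus the mean log2 CPM of the WT SCC libraries, limited to ±2, so blue is below and red above WT SCC. Most enzyme rows are red in the 5 libraries labelled KO, and Insig1, Insig2 and Nr1h3 are red in WT skin.

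The contrast of KO SCC with WT SCC holds the lesion type fixed and changes the genotype label. Of the 30 members 13 were higher in KO SCC, 1 was lower and 16 did not pass an adjusted p of 0.05. Over all 22371 genes tested, 4.48% were called higher and 3.38% lower. The median log2 fold change was 0.65 for the members and -0.01 for all genes. Among the 19 enzymes 11 rose and 0 fell, with a median of 0.88, and 18 of the 19 fitted changes were positive. The counts rest on few libraries: without KO SCC replicate 1, which leaves 1 library in that group, 2 members were called higher, and without WT SCC replicate 2 or 3, 5 and 8 were. Without KO SCC replicate 2, the library with Y chromosome counts, 9 were, and the calls of Sqle, Lss, Hsd17b7 and Sc5d were lost.

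In the mevalonate arm 3 of 8 genes rose. Idi1, which encodes the isomerase that makes dimethylallyl diphosphate, was at 53.0, 48.3 and 58.7 CPM in WT SCC and 208 and 148 CPM in KO SCC. Both KO libraries lay above all WT libraries, and the rise was 3.33-fold (log2 fold change 1.74 ± 0.26 (SE), adjusted p = 0.00457), the largest of the 30. Acat2, the thiolase that joins acetyl-CoA units at the start of the pathway, was at 69.6, 66.4 and 70.6 CPM in WT SCC and 159 and 129 CPM in KO SCC, a rise of 2.09-fold (adjusted p = 0.00774). It lies 13.6 Mb from Dusp1 on chromosome 17, and linkage to the targeted allele was not tested. Pmvk, a kinase that phosphorylates phosphomevalonate, went from 57.7, 55.4 and 52.0 CPM to 146 and 95.02 CPM (2.19-fold, adjusted p = 0.0116), and its groups did not overlap although the KO libraries were far apart.

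The other 5 genes of this arm did not pass the test. Hmgcs1, HMG-CoA synthase, was at 273, 258 and 262 CPM in WT SCC and 439.6 and 437 CPM in KO SCC (1.66-fold, adjusted p = 0.0559), just short of the threshold with groups that did not overlap. It passed with RLE size factors (adjusted p = 0.0488), with no filter (adjusted p = 0.0214), with only the compared groups in the fit (adjusted p = 0.00432) and with DESeq2 (adjusted p = 0.00684), but not with the replicate block (KO SCC against WT SCC: Hmgcs1, adjusted p = 0.137). The decarboxylase gene Mvd was at 39.1, 39.6 and 42.6 CPM and 72.6 and 58.4 CPM (adjusted p = 0.1004), and mevalonate kinase, Mvk, at 47.5, 53.3 and 50.1 CPM and 68.5 and 56.5 CPM (adjusted p = 0.387). Fdps, farnesyl diphosphate synthase, was at 4.33, 6.38 and 5.10 CPM and 8.74 and 10.7 CPM (adjusted p = 0.111) and was the enzyme with the fewest counts. Ggps1, which leads isoprenoids away from sterols towards protein prenylation, showed the smallest difference of the arm, 0.15 on the log2 scale, at 29.5, 28.7 and 26.2 CPM and 32.4 and 30.2 CPM.

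From squalene to cholesterol 8 of 11 genes rose. Fdft1, squalene synthase, was at 159, 138 and 138 CPM in WT SCC and 337 and 257 CPM in KO SCC (2.05-fold, adjusted p = 0.00648). Sqle, squalene epoxidase, was at 149.6, 154 and 161 CPM and 240.0 and 233 CPM (1.53-fold, adjusted p = 0.0397). Lss, which closes the ring system to lanosterol, was at 42.8, 46.2 and 50.04 CPM and 88.7 and 85.5 CPM (1.88-fold, adjusted p = 0.0465). In all 3 the lowest KO library lay above the highest WT library, but the calls of Sqle and Lss were lost on leaving out any of the 5 carcinomas.

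Cyp51, lanosterol demethylase, showed the largest rise of this arm, from 174, 140.1 and 156 CPM to 419.9 and 334 CPM (2.41-fold, log2 fold change 1.27 ± 0.23 (SE), adjusted p = 0.00910). Msmo1, a methyl sterol oxidase that acts after it, was at 257, 209.8 and 227 CPM and 593 and 424 CPM (2.20-fold, adjusted p = 0.0116). In both, KO SCC replicate 1 was the higher of the KO libraries, as it was for most enzymes. Nsdhl, a dehydrogenase of the same demethylation, was at 35.0, 38.0 and 38.1 CPM and 80.6 and 63.8 CPM (1.95-fold, adjusted p = 0.0171). Hsd17b7, the ketoreductase that completes it, was at 67.9, 65.7 and 63.6 CPM and 129 and 137 CPM (2.03-fold, adjusted p = 0.0158). The desaturase gene Sc5d went from 78.3, 75.4 and 77.0 CPM to 143 and 121 CPM (1.72-fold, adjusted p = 0.0233). These 3 groups did not overlap either. The isomerase gene Ebp, which like Nsdhl lies on chromosome X, was at 101, 94.8 and 96.5 CPM and 150.2 and 127 CPM (adjusted p = 0.0755).

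Of the later enzymes, Tm7sf2 and Dhcr7 had the smallest fitted changes. Tm7sf2, a sterol reductase, was at 17.7, 18.5 and 15.2 CPM in WT SCC and 18.8 and 13.8 CPM in KO SCC (log2 fold change -0.07). Dhcr7, which makes cholesterol from its last precursor in one branch of the pathway, was at 56.2, 78.0 and 75.6 CPM and 81.6 and 59.8 CPM (log2 fold change 0.01). The groups overlapped in both genes. Their 95% confidence intervals ran from -0.45 to 0.30 for Tm7sf2 and from -0.47 to 0.50 for Dhcr7 on the log2 scale, so the median rise of the enzymes lay outside both.

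Among the SREBP genes only Insig1 passed in this contrast. Insig1, whose product retains SCAP and which is itself an SREBP target, was at 33.3, 29.2 and 35.4 CPM in WT SCC and 102 and 87.7 CPM in KO SCC. The KO libraries were far above the WT libraries, a rise of 2.91-fold (log2 fold change 1.54 ± 0.22 (SE), adjusted p = 0.00368). Its paralog Insig2 was at 49.9, 41.2 and 43.5 CPM and 52.6 and 57.4 CPM (adjusted p = 0.393). The genes of the transcription factors themselves did not pass. Srebf1 was at 62.5, 84.8 and 71.3 CPM and 51.7 and 57.1 CPM (log2 fold change -0.42, adjusted p = 0.153). Srebf2, the SREBP gene most closely tied to cholesterol enzymes, was at 134, 177 and 153 CPM and 143 and 148 CPM, groups that overlapped. Scap was at 100.5, 111 and 98.1 CPM and 79.3 and 78.9 CPM (log2 fold change -0.38, adjusted p = 0.220). SREBP acts after cleavage of the protein, which RNA levels do not show. Stard4, a sterol carrier that is also an SREBP target, was at 59.7, 57.8 and 59.8 CPM and 127 and 112 CPM and rose 2.02-fold (adjusted p = 0.00184). Insig1 and Stard4 were the members whose calls held under all 10 alternatives run, with adjusted p up to 0.0390 and 0.0299.

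Of the 5 LXR genes 1 fell and 4 did not pass. Abca1, the exporter that loads cholesterol onto apolipoproteins, was at 54.4, 57.9 and 56.9 CPM in WT SCC and 17.7 and 26.3 CPM in KO SCC. It fell 2.56-fold (adjusted p = 0.00752, log2 fold change -1.36 ± 0.23 (SE)). The call was lost without KO SCC replicate 1 (adjusted p = 0.102). Nr1h3, which encodes LXR alpha, was at 2.96, 2.16 and 2.73 CPM and 0.895 and 1.44 CPM (2.23-fold lower, adjusted p = 0.0518), non-overlapping and just short of the threshold. Mylip, a ubiquitin ligase for lipoprotein receptors, was at 19.4, 20.4 and 23.7 CPM and 11.3 and 16.9 CPM (adjusted p = 0.0960), and Nr1h2, LXR beta, at 87.0, 115 and 103 CPM and 85.3 and 83.3 CPM (adjusted p = 0.374). Abcg1, a second exporter gene, was at 19.1, 14.6 and 18.9 CPM and 23.1 and 23.1 CPM (adjusted p = 0.256) and lies 4.55 Mb from Dusp1. Macrophages express Abca1 and Nr1h3, and their 8 markers summed to 472 to 629.8 CPM in WT SCC and 237 to 283 CPM in KO SCC, with 1 marker called lower. Their part in the lower Abca1 was not tested.

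**Figure D3:**
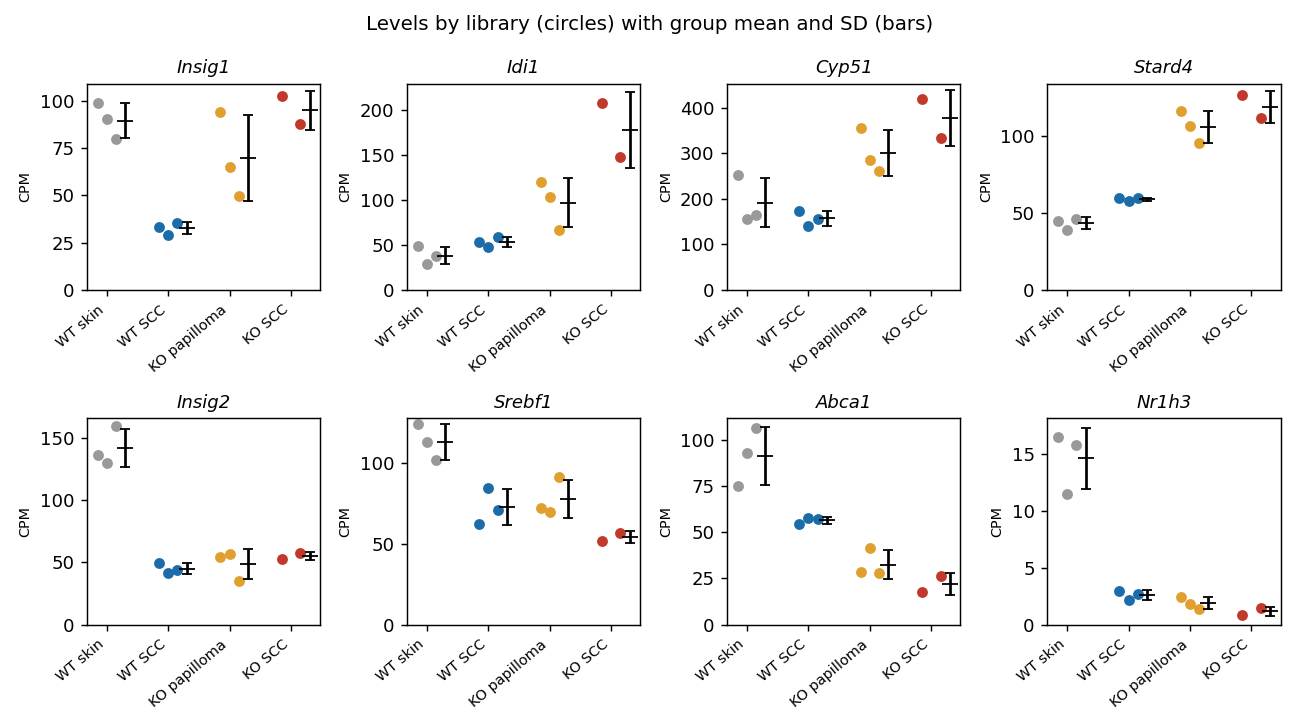
Level (y axis, CPM) of 8 members in each of the 11 mouse libraries by group. Circles are libraries, and bars give the group mean and SD. Insig1, Idi1, Cyp51 and Stard4 are higher in KO SCC than in WT SCC, and Abca1 is lower in KO SCC than in WT SCC.

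Markers of other cell types and states differed between these groups as well. Differentiating keratinocytes, whose barrier contains cholesterol, had 4 of 9 markers higher and 1 lower, with sums of 2606 to 2973 CPM in WT SCC and 3303 to 3784 CPM in KO SCC. Proliferation markers summed to 489 to 588 CPM in WT SCC and 799 to 969.6 CPM in KO SCC, with 1 of 6 called higher. Lymphocyte markers summed to 186 to 195 CPM in WT SCC and 15.4 to 20.5 CPM in KO SCC, with 2 of 7 called lower. Besides macrophages, lists with 1 marker called lower and 0 higher included those of fibroblasts (6 markers, 2322 to 3961 CPM and 1027 to 3225 CPM), melanocytes (6 markers, 25.8 to 33.3 CPM and 5.04 to 28.7 CPM) and skeletal muscle (6 markers, 4.65 to 111 CPM and 5.19 to 11.7 CPM). Basal keratinocyte markers also had 1 of 7 called lower, and 6 of the 7 fitted changes were negative (median log2 fold change -0.71). Their sum, weighted by the abundant markers, was 35981 to 38356 CPM in WT SCC and 45396 to 49124 CPM in KO SCC. The part of all these cells and states in the rise of the enzymes was not tested. Of 9 sebaceous gland markers 0 passed in edgeR, 1 had an unadjusted p under 0.05 and DESeq2 called 0. Of these, 1 was at 0 in KO SCC replicate 1, and their sums of 182 to 317 CPM and 181 to 406 CPM overlapped. Over all genes tested, 24.8% had an unadjusted p under 0.05 in edgeR in this contrast.

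Related genes of lipid metabolism were counted in 6 lists. In the fatty acid synthesis list, 2 of 14 rose and 0 fell: Acss2, which makes acetyl-CoA from acetate, rose 4.58-fold from 14.5 to 66.5 CPM (group means, adjusted p = 0.00854), and Me1, malic enzyme, rose 1.70-fold (adjusted p = 0.0407). In the list of sterol uptake, transport and esterification 4 of 15 rose and 1 fell, among them Gramd1c, of a family of sterol carriers at membrane contacts (2.67-fold, adjusted p = 0.00489). Tmem97, a sterol-responsive membrane protein gene, rose 2.28-fold (adjusted p = 0.00678), and Lrp8, a lipoprotein receptor gene, rose 2.42-fold (adjusted p = 0.0130). Of 8 genes of SREBP processing and sterol-regulated degradation 1 fell, the ubiquitin ligase gene Rnf145 (1.44-fold, adjusted p = 0.0361). Smpdl3a was the 1 gene of 7 tested LXR partners and targets that rose (1.69-fold, adjusted p = 0.0431). Of 10 genes of isoprenoid use 0 passed in edgeR, 1 had an unadjusted p under 0.05 and DESeq2 called 1. Of 6 tested genes of oxysterol and sterol sulfate metabolism 0 passed in edgeR, 1 had an unadjusted p under 0.05 and DESeq2 called 0. The share of all genes at an unadjusted p under 0.05 was 24.8%.

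Papillomas labelled KO were then set against WT carcinomas, a contrast in which genotype label and lesion type cannot be told apart and which shares its WT SCC libraries with the contrast above. Of the 30 members 12 were higher, 1 lower and 17 did not pass, against 3.49% of all genes called higher and 1.77% lower. The median log2 fold change was 0.63 for the members, 0.83 for the 19 enzymes and 0.02 for all genes. Without WT SCC replicate 1, 2 or 3 the number called higher was 7, 4 and 7, and without papilloma replicate 1, 2 or 3 it was 8, 13 and 12. The calls of Acat2, Mvd, Hsd17b7 and Stard4 held under all 11 alternatives run.

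Mvd was the member with the largest rise in papilloma. It was at 126, 72.5 and 116 CPM, above all WT SCC libraries (2.59-fold, log2 fold change 1.37 ± 0.22 (SE), adjusted p = 0.00455). Of the other early enzymes, Mvk was at 97.8, 69.8 and 111 CPM (1.85-fold, adjusted p = 0.0200), and Acat2 at 169, 130.1 and 117 CPM (2.01-fold, adjusted p = 0.00534). Pmvk was at 122, 94.3 and 94.9 CPM (1.88-fold, adjusted p = 0.0210). All 3 rose, and no papilloma overlapped WT SCC in them. Idi1, at 120.5, 103 and 67.0 CPM, did not pass (1.82-fold, adjusted p = 0.0671), nor did Hmgcs1, at 436, 374 and 239 CPM (adjusted p = 0.273), of which replicate 3 lay below WT SCC. Fdps was at 12.5, 7.10 and 9.91 CPM (adjusted p = 0.107) and Ggps1 at 19.7, 31.1 and 20.2 CPM (adjusted p = 0.524).

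Of the later enzymes 6 of 11 rose. Lss was at 131, 68.9 and 121 CPM (2.31-fold, adjusted p = 0.0103), Hsd17b7 at 174, 121 and 126 CPM (2.14-fold, adjusted p = 0.00669). The level of Cyp51 was 356, 285 and 260.1 CPM (1.92-fold, adjusted p = 0.0241). Fdft1, Sqle and Nsdhl, the other 3, rose 1.78-fold, 1.72-fold and 1.73-fold. Msmo1, Ebp, Sc5d, Tm7sf2 and Dhcr7 did not pass, with fitted differences of 0.68, 0.47, 0.31, 0.32 and 0.35 on the log2 scale. Insig1 was at 94.2, 64.8 and 49.5 CPM and rose 2.13-fold (adjusted p = 0.0110), while Insig2, Srebf1, Srebf2 and Scap overlapped WT SCC. Stard4 was at 116, 107 and 95.5 CPM (1.80-fold, adjusted p = 0.00221). Abca1, at 28.4, 41.3 and 27.9 CPM, was the member that fell (1.73-fold, adjusted p = 0.0432), a call lost without any 1 of the WT SCC libraries and without papilloma replicate 1 or 3. Beside it, macrophage markers summed to 234 to 361 CPM in papilloma (1 of 8 called lower) and 472 to 629.8 CPM in WT SCC, and lymphocyte markers to 15.7 to 69.3 CPM (2 of 7 called lower) and 186 to 195 CPM. The lymphocyte markers did not move together: 4 fitted changes were positive and 3 negative (median log2 fold change 0.48). The part of both cell types in the lower Abca1 was not tested. The other LXR genes Abcg1, Mylip, Nr1h2 and Nr1h3 did not pass.

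The 3 papillomas did not show the same profile. Replicate 3 was the lowest of the 3 for Insig1 (49.5 CPM), Idi1 (67.0 CPM), Hmgcs1 and Msmo1. It was the highest for Mvk (111 CPM), Dhcr7 (106 CPM), Srebf1 (91.4 CPM), Srebf2 (226 CPM) and Scap (133 CPM). Replicate 1 was the highest for 14 of the 19 enzymes, and without it the median of the 30 members was 0.47. Differentiating keratinocyte markers were higher in papilloma for 8 of 9 genes, with a sum of 7448 to 10305 CPM, with 1 of 9 sebaceous gland markers called higher. Marker sums differed between the papillomas too. In replicates 1, 2 and 3, sebaceous gland markers summed to 669, 528 and 350.4 CPM and basal keratinocyte markers to 58575, 36093 and 39944 CPM. Adipocyte markers summed to 259.9, 41.8 and 4.51 CPM and hair follicle markers to 630.1, 237 and 2.70 CPM, where WT SCC held 6.47 to 30.7 CPM and 0.597 to 1.49 CPM. Replicate 1 was the highest in these 4 sums and for fibroblast, endothelial and proliferation markers. Replicate 3 was the highest for differentiating keratinocyte and melanocyte markers, and replicate 2 for macrophage, lymphocyte and skeletal muscle markers. Of the 6 hair follicle markers 0 passed in edgeR against WT SCC, 6 had an unadjusted p under 0.05 and DESeq2 called 5, and of the 8 adipocyte markers 0 passed, 4 had an unadjusted p under 0.05 and DESeq2 called 0. The part of these cells in the higher enzymes was not tested. Over all genes tested, 19.4% had an unadjusted p under 0.05 in edgeR in this contrast.

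Around the members, Me1 (2.30-fold, adjusted p = 0.00336) and Acss2 (2.68-fold, adjusted p = 0.0421) rose in papilloma among 14 fatty acid genes. Of 15 genes of uptake and transport 3 rose and 1 fell, with Gramd1c (2.70-fold) and Tmem97 (1.85-fold) higher and the lipoprotein receptor gene Vldlr 2.25-fold lower (adjusted p = 0.00361). Rnf145 fell 1.40-fold and was the 1 gene of its list of 8 that passed. Smpdl3a rose 2.32-fold. Isoprenoid use gave 0 calls in edgeR, 0 at an unadjusted p under 0.05 and 0 in DESeq2. Oxysterol and sterol sulfate metabolism gave 0 calls in edgeR, 3 at an unadjusted p under 0.05 and 1 in DESeq2. The share of all genes at an unadjusted p under 0.05 was 19.4%.

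**Figure D4:**
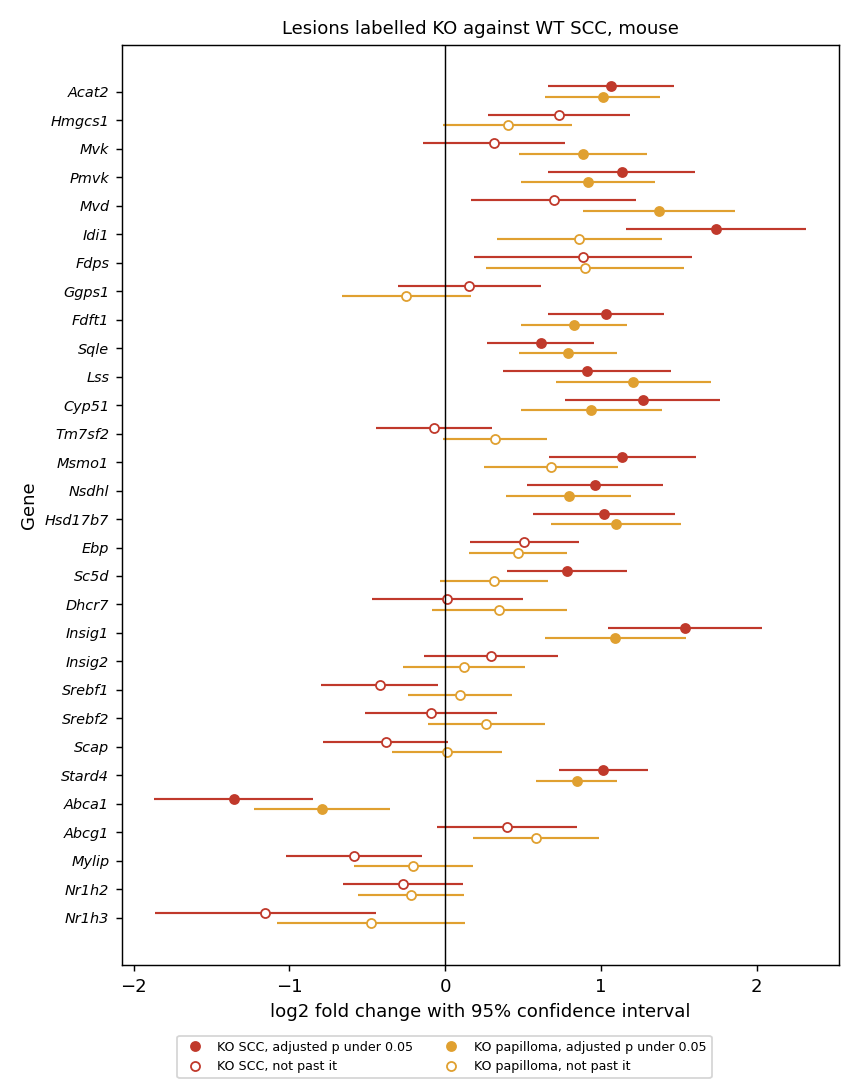
Log2 fold change (x axis) with 95% confidence interval of each member in KO SCC (red) and KO papilloma (orange), both against the same 3 WT SCC libraries. Filled circles are past an adjusted p of 0.05 and open circles are not. In KO SCC 13 members are higher and 1 lower, and in KO papilloma 12 are higher and 1 lower.

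Carcinoma and papilloma of the same KO label gave no call among the members. In KO SCC against KO papilloma 0 of 30 were called higher and 0 lower in edgeR, where 0.0492% and 0.237% of all genes were. At an unadjusted p under 0.05 there were 7 members, 2 higher and 5 lower, and 15.6% of all genes were under it in either direction. DESeq2 called 1, Idi1, which was at 208 and 148 CPM in KO SCC and 120.5, 103 and 67.0 CPM in KO papilloma (1.83-fold, adjusted p = 0.184 in edgeR). The median log2 fold change was -0.03 for the members and -0.05 for all genes. For Insig1 the interval of the difference ran from -0.05 to 0.95, and for Mvd from -1.22 to -0.13 (log2, 95%, not adjusted), with adjusted p = 0.242 for Mvd.

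WT carcinoma differed from treated WT skin in 9 of the 11 regulator, carrier and LXR genes and in 2 of the 19 enzymes. Of the 30 members 4 were higher in WT SCC, 7 lower and 19 did not pass, where 16.9% of all genes were called higher and 23.6% lower. Among the 19 enzymes 1 rose, Ebp, and 1 fell, Msmo1. Ebp was at 82.0, 67.0 and 66.8 CPM in skin and rose 1.36-fold (adjusted p = 0.0309). Msmo1 was at 429, 292 and 338 CPM in skin and fell 1.53-fold (adjusted p = 0.0281). The groups did not overlap in either gene. The call of Ebp was lost on leaving out any library but WT skin replicate 1, and that of Msmo1 without WT skin replicate 1 or WT SCC replicate 2 or 3. The other 17 enzymes had fitted differences of -0.40 (Acat2) to 0.50 (Hsd17b7) on the log2 scale. Without WT SCC replicate 2 the number of members higher was 2. WT skin replicates 1 and 2 held 6624 and 9552 Y chromosome counts, skin replicate 3 held 7 and every WT SCC library 0. Xist was at 0.0745, 0.705 and 382 CPM in skin and 497, 478 and 404 CPM in WT SCC. The part of this difference in the change of Ebp, which lies on chromosome X, and of the other members was not tested.

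Both INSIG genes were lower in carcinoma than in skin. Insig1 was at 98.5, 90.2 and 79.7 CPM in skin (2.74-fold lower in WT SCC, adjusted p = 0.000322), so that KO SCC, at 102 and 87.7 CPM, lay in the range of skin or above it. Insig2, a paralog not switched on by SREBP, was at 136, 130.0 and 159 CPM in skin and fell 3.16-fold (adjusted p = 6.63e-05). Unlike Insig1, it was low in all 8 lesions, at 34.9 to 57.4 CPM. The 2 SREBP genes moved apart: Srebf1 was at 124, 113 and 102 CPM in skin and fell 1.55-fold (adjusted p = 0.00669), and Srebf2 was at 95.8, 96.6 and 111 CPM and rose 1.53-fold (adjusted p = 0.0153). Scap, at 62.1, 73.0 and 60.8 CPM in skin, rose 1.58-fold (adjusted p = 0.00789). Stard4, at 45.2, 39.0 and 46.2 CPM, rose 1.36-fold (adjusted p = 0.0120), so WT SCC stood between skin and the lesions labelled KO. Of 7 basal keratinocyte markers 6 were higher in WT SCC and 1 lower (skin 6714 to 14412 CPM, WT SCC 35981 to 38356 CPM). All 6 fibroblast markers were lower (skin 4744 to 36355 CPM, WT SCC 2322 to 3961 CPM), as were all 6 hair follicle markers (skin 21.3 to 8608 CPM). The part of these cells, and of those given below for the LXR genes, in these changes was not tested.

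Among the 5 members listed as LXR genes, LXR alpha and 2 of the 3 targets were lower in carcinoma. Nr1h3 was at 16.5, 11.5 and 15.8 CPM in skin and fell 5.58-fold in WT SCC (log2 fold change -2.48 ± 0.28 (SE), adjusted p = 8.02e-05), the largest change of any member in mouse. Mylip was at 40.5, 46.4 and 34.9 CPM and fell 1.92-fold (adjusted p = 0.00169), and Abca1 at 74.9, 92.9 and 106 CPM and fell 1.62-fold (adjusted p = 0.0162). In all 3 every skin library lay above every carcinoma. Nr1h2, at 104, 89.4 and 73.7 CPM, and Abcg1, at 19.04, 17.5 and 19.002 CPM, overlapped WT SCC. Markers of cell types in which LXR genes are active were lower too: 7 of 8 macrophage markers were lower in WT SCC (skin 799 to 2079.9 CPM), as were 8 of 8 adipocyte markers (skin 1810.3 to 3129 CPM, WT SCC 6.47 to 30.7 CPM). Sebaceous gland markers fell in 8 of 9 (skin 1739.6 to 2150.1 CPM, WT SCC 182 to 317 CPM). The part of these cells in the lower LXR genes was not tested.

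The related lists held more calls here than in the other mouse contrasts, as did the genes at large. Of 14 fatty acid genes 9 fell and 1 rose: the elongase gene Elovl5 fell 10.4-fold (adjusted p = 2.27e-05), Me1 3.48-fold and Gpam, which starts glycerolipid synthesis, 4.29-fold. Of 7 tested LXR partners and targets 4 fell and 1 rose, with the phospholipid transfer protein gene Pltp 6.89-fold, Smpdl3a 2.88-fold and the acyltransferase gene Lpcat3 1.62-fold lower. In uptake and transport 5 of 15 fell and 3 rose, Gramd1b by 5.64-fold and the lipoprotein receptor gene Scarb1 by 2.90-fold downward and Lrp8 by 2.97-fold upward. Sult2b1, which adds sulfate to cholesterol in the epidermis, rose 5.16-fold (adjusted p = 7.70e-05), while the sterol hydroxylase genes Cyp27a1 and Cyp39a1 fell 5.22-fold and 1.67-fold. That list had 2 of 6 higher and 3 lower. Of 10 genes of isoprenoid use 6 rose and 1 fell, with Nus1, of dolichol synthesis, 1.60-fold, Icmt 1.51-fold and Rabggta 1.44-fold higher. In SREBP processing 3 of 8 rose, Rnf145 (1.46-fold), Ubxn8 (1.499-fold) and Erlin1 (1.36-fold).

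In A431 cells the enzymes were mostly lower, by small amounts, in cells carrying the DUSP1 guide. Of the 30 members 6 were higher, 19 lower and 5 did not pass, where 23.1% of 18090 tested genes were called higher and 24.5% lower. The median log2 fold change was -0.18 for the members and 0.01 for all genes. Among the 19 enzymes 3 rose and 13 fell, and no called enzyme changed by more than 1.69-fold. The libraries of an arm lay closer together than those of a mouse group, and small changes passed the test here. Leaving out each library in turn gave 15 to 21 lower and 6 higher, with 16 and 17 lower without KO replicate 2 or 3, the libraries of like sample code.

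The enzyme that fell most was MSMO1, at 257, 267 and 254 CPM in control and 179, 174 and 179 CPM in KO cells (1.46-fold lower, log2 fold change -0.55 ± 0.04 (SE), adjusted p = 1.75e-08). PMVK was at 45.6, 42.4 and 48.3 CPM and 34.2, 29.4 and 32.4 CPM (1.42-fold lower, adjusted p = 6.22e-06). FDPS was at 169.5, 158 and 159.9 CPM and 129.5, 125 and 125 CPM (1.29-fold lower, adjusted p = 5.51e-06). No KO library reached a control library in any of these 3. SQLE fell 1.24-fold from 272, 285 and 270.4 CPM to 236, 217 and 214 CPM. The remaining 9 that fell, ACAT2, HMGCS1, MVD, IDI1, FDFT1, LSS, CYP51A1, NSDHL and EBP, did so by 1.09-fold (IDI1) to 1.24-fold (CYP51A1). CYP51A1 was at 10.7, 9.14 and 9.53 CPM and 7.18, 7.75 and 8.78 CPM, and its call was lost without control replicate 1 or KO replicate 2. ACAT2 (adjusted p = 0.0430) and IDI1 (adjusted p = 0.0336) lost the call on leaving out any of 5 of the 6 libraries. GGPS1, HSD17B7 and SC5D did not pass.

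The enzymes that rose were MVK, TM7SF2 and DHCR7. TM7SF2 was at 16.9, 18.4 and 17.5 CPM in control and 30.5, 28.6 and 30.3 CPM in KO cells (1.69-fold, adjusted p = 3.58e-08). DHCR7 was at 73.3, 77.3 and 76.0 CPM and 105, 114 and 117 CPM (1.48-fold, adjusted p = 1.14e-07), and MVK at 58.9, 56.7 and 61.8 CPM and 64.6, 67.1 and 72.6 CPM (1.15-fold, adjusted p = 0.00586). All KO libraries lay above all controls in these genes. In mouse carcinoma the fitted changes of Tm7sf2 and Dhcr7 were -0.07 and 0.01 on the log2 scale.

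All 5 SREBP genes passed in A431, in both directions. SREBF1 was at 292, 285 and 300.4 CPM in control and 364, 412 and 432 CPM in KO cells (1.38-fold higher, adjusted p = 2.47e-06), and SCAP at 59.2, 57.5 and 57.7 CPM and 79.1, 91.8 and 88.1 CPM (1.48-fold higher, adjusted p = 2.58e-07). SREBF2 was at 329, 323 and 315 CPM and 242, 263 and 258 CPM (1.27-fold lower, adjusted p = 8.05e-06). Thus the 2 SREBP genes moved in opposite directions. INSIG1 was at 139, 143 and 139 CPM and 106, 113 and 110.0 CPM (1.28-fold lower, adjusted p = 5.98e-06), and INSIG2 at 22.4, 24.6 and 23.2 CPM and 20.3, 17.01 and 16.8 CPM (1.30-fold lower, adjusted p = 0.000724). STARD4, at 101, 103 and 96.5 CPM and 107, 91.7 and 95.2 CPM, did not pass (adjusted p = 0.666).

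The cholesterol exporters showed the largest changes of the members in A431. ABCG1 was at 5.29, 5.39 and 4.85 CPM in control and 1.13, 1.01 and 1.19 CPM in KO cells, a fall of 4.65-fold (log2 fold change -2.22 ± 0.16 (SE), adjusted p = 3.69e-09). ABCA1 was at 8.04, 8.70 and 8.82 CPM and 3.26, 3.48 and 3.37 CPM and fell 2.53-fold (log2 fold change -1.34 ± 0.11 (SE), adjusted p = 2.26e-08). Both were at low levels, and the arms were far apart relative to their spread. MYLIP was at 4.52, 4.64 and 5.18 CPM and 3.77, 3.70 and 3.653 CPM (1.29-fold lower, adjusted p = 0.0211) and was not called by DESeq2. NR1H3 went the other way, from 6.26, 5.22 and 6.49 CPM to 10.1, 8.43 and 9.16 CPM (1.54-fold higher, adjusted p = 0.000154), and NR1H2 was at 71.7, 65.7 and 73.9 CPM and 64.3, 72.3 and 76.1 CPM (adjusted p = 0.916). Of 8 macrophage markers, which summed to 5.92 to 7.24 CPM in control and 5.80 to 7.42 CPM in KO cells, ADGRE1 made up nearly all, the other 7 were too low to be tested and C1QA was at 0 in both arms. Proliferation markers fell in 5 of 6 and rose in 1, with sums of 594 to 606 CPM and 451 to 463 CPM. Differentiating keratinocyte markers had 4 of 8 tested higher and 2 lower, with sums of 23670.1 to 24300.0 CPM in control and 16247 to 17969 CPM in KO cells. Sebaceous gland markers had 2 of 4 tested higher and 1 lower, with sums of 297 to 315 CPM and 606 to 620.1 CPM, most of it KRT79. Fibroblast markers fell in 4 of 4 tested, with sums of 126 to 127 CPM and 75.8 to 87.9 CPM. These libraries came from a human carcinoma line depleted of mouse cells, so the lists do not count other human cell types. The part of the states behind these markers in the lower enzymes and exporters was not tested.

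In A431 the fatty acid list held more genes higher than lower. Of 13 genes 6 rose and 2 fell, with the desaturase genes FADS2 and FADS1 2.14-fold (adjusted p = 1.81e-11) and 1.46-fold higher and LPIN1, a phosphatidate phosphatase gene, 1.59-fold higher. Of 10 genes of isoprenoid use 7 fell and 0 rose, with ICMT 1.39-fold, PGGT1B 1.35-fold and PDSS2 1.34-fold lower. SREBP processing had 5 of 8 lower and 0 higher, with ERLIN2 1.33-fold, RNF145 1.22-fold and RNF139 1.19-fold lower. In uptake and transport 5 of 14 tested rose and 4 fell: VLDLR rose 3.05-fold (adjusted p = 1.01e-07) and SCARB1 1.44-fold, and the sterol carrier gene STARD5 fell 1.53-fold. Of 6 tested LXR partners and targets PLTP rose 1.96-fold, and SMPDL3A and RXRA fell 1.57-fold and 1.22-fold. Of the oxysterol genes 3 were tested: CYP39A1 fell 4.96-fold from 14.04 to 2.83 CPM (adjusted p = 2.38e-11), HSD3B7 fell 2.74-fold and SULT2B1 rose 1.14-fold.

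Set side by side, the contrasts of KO against WT or control label in mouse carcinoma and in A431 shared a direction, with no overlap of groups in either, for 3 members. Of 11869 genes of shared symbol tested in both, 16.6% did so. Abca1 was 2.56-fold lower in mouse and 2.53-fold lower in A431, and Mylip and Mvk passed in A431 alone, with -0.58 and 0.31 in mouse and -0.37 and 0.20 in A431 on the log2 scale. In opposite directions, again without overlap, lay 19 members and 20.3% of the genes of shared symbol. Both tallies depend on the mouse labels, and with the mouse direction turned they would swap. Dusp1 was 2.11-fold higher in KO SCC (adjusted p = 0.0284), which alone does not show that a label is wrong. For Insig1 the values were 1.54 in mouse and -0.36 in A431 on the log2 scale, and for Msmo1 1.14 and -0.55. Pmvk gave 1.13 and -0.50. The mouse sections hold stroma and immune cells and the A431 libraries tumour cells of an established line, and species, tissue and the state of the targeted transcript all differ between them. These cannot be told apart, and no test was made across the separate tables.

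**Figure D5:**
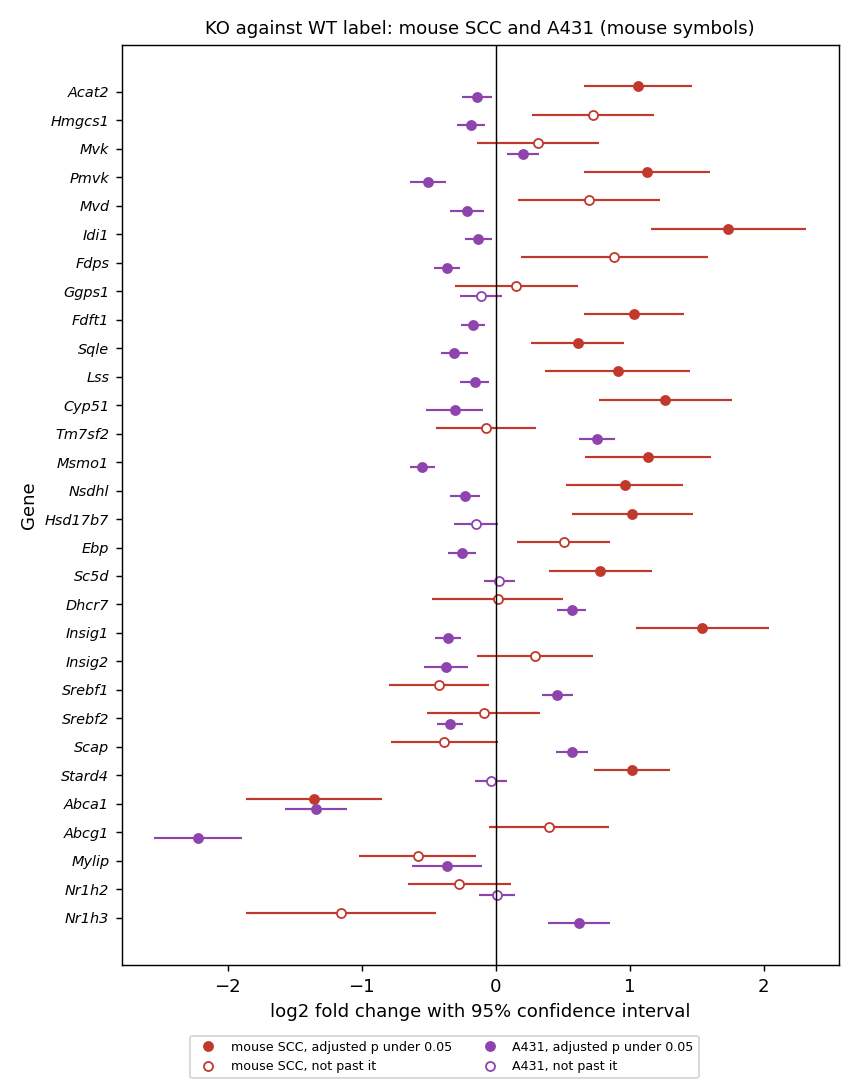
Log2 fold change (x axis) with 95% confidence interval of each member, under its mouse symbol, in KO SCC against WT SCC (red) and in A431 KO against A431 control (purple). Filled circles are past an adjusted p of 0.05 and open circles are not. Most enzymes lie right of 0 in mouse and left of 0 in A431, and Abca1 lies left of 0 in both.

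Some members share sequence with other annotated genes. On the opposite strand Fdft1 overlaps Ctsb, Ggps1 overlaps Arid4b, Cyp51 overlaps Akap9 and Srebf1 overlaps Rai1, and on the same strand Tm7sf2 overlaps Vps51. Over the mouse libraries Ctsb held 411654 counts beside 87694 for Fdft1, and Arid4b 17090 beside 12678 for Ggps1. Akap9 held 17993 beside 109784 for Cyp51, Rai1 8360 beside 38937 for Srebf1, and Vps51 3165 beside 8008 for Tm7sf2. Dusp1, which is not a member, overlaps Ergic1 and Gm8225 on the opposite strand and AC122252.1 and AC122252.4 on its own. Ergic1 held 15092 counts over the mouse libraries, beside 47005 for Dusp1. The sources used here do not give the strand setting of the counting, and reads from overlapping partners cannot be told apart. Pseudogene copies of CYP51A1, FDPS and HSD17B7 held between 0 and 129 counts per A431 library, and reads could have been split between them and the member genes.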

How the data were processed

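RNA was measured in 17 libraries made with a stranded mRNA kit, per the labels. The authors deposited raw gene counts, 1 table for mouse and 1 for A431. HISAT2, StringTie and DESeq were used with mm10 and hg38, per the submitters' processing notes. The sources used here do not give the counting rule, strand setting or annotation. Features without a gene name, 0.115 to 0.496% of a library's counts, were left out. edgeR 4.0.16 in R 4.3.3 (default filter, TMM, quasi-likelihood test, two-sided) fitted the 11 mouse libraries together and the 6 A431 libraries on their own. Adjusted p-values are Benjamini-Hochberg values over all genes tested in a comparison, with a threshold of 0.05. The code was tested on simulated data. The alternatives were DESeq2 1.42.0, RLE size factors, no filter, only the groups compared, the replicate number as a block, and leaving out each library. The members and lists were chosen with earlier results of these data known. All members are named, and of each related list up to 3 called genes with the smallest p per comparison. Gene positions are from GENCODE M21, by symbol. Replicates of a group differed beyond sampling noise.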

Additional observations from a re-analysis of the deposited data

Results flagged for a closer look

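Between mouse carcinoma and A431, 19 of the 30 members had groups that did not overlap in either system and lay in opposite directions under the KO label. The difference itself was not tested, because the tables were normalized and fitted separately. Among 11869 genes of shared symbol tested in both, 20.3% did so, against 63.3% of the members, and 3 members and 16.6% of genes lay in the same direction. The mouse direction is that of the labels. Dusp1 was at a mean of 74.5 CPM in WT SCC and 157 CPM in KO SCC, which alone does not show that a label is wrong. If the mouse direction were turned, the 19 would share a direction with A431 and the 3 would oppose it, and the shares of all genes would swap in the same way. The members were chosen with results known, so these shares describe the data only. Log2 fold changes of KO against WT SCC in mouse were 1.07 for Acat2, 0.73 for Hmgcs1, 1.13 for Pmvk, 0.70 for Mvd, 1.74 for Idi1, 0.88 for Fdps, 1.03 for Fdft1, 0.61 for Sqle, 0.91 for Lss, 1.27 for Cyp51, 1.14 for Msmo1, 0.96 for Nsdhl, 0.51 for Ebp, 1.54 for Insig1, 0.29 for Insig2 and 0.40 for Abcg1, and their A431 counterparts were lower, at -2.22 (ABCG1) to -0.13 (IDI1). In the reverse direction they were -0.42 for Srebf1, -0.38 for Scap and -1.16 for Nr1h3, with A431 values of 0.46 for SREBF1, 0.57 for SCAP and 0.63 for NR1H3. Of these mouse values those of Hmgcs1, Mvd, Fdps, Ebp, Insig2, Srebf1, Scap, Abcg1 and Nr1h3 did not pass the test. No group held 4 or more libraries, so outlying libraries were not tested for.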

How the results depend on the processing

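Of the values of single members under the alternatives, 1431 kept their direction and their side of the threshold, 39 passed it newly, 90 no longer passed it and 0 changed sign while called. In KO SCC against WT SCC the members higher were 2 to 9 when a library was left out and 17 with DESeq2 or with only the groups compared, those lower 0 to 1 (2 with DESeq2 and 3 with only the groups compared) and the median 0.56 to 0.68 (0.71 without a filter). In WT SCC against WT skin they were 2 to 6 higher, 6 to 8 lower and the median -0.00103 to 0.11. In KO papilloma against WT SCC they were 4 to 13 higher (17 with DESeq2, 15 with only the groups compared or without a filter), 0 to 1 lower and the median 0.47 to 0.70. In KO SCC against KO papilloma 0 passed either way, except 1 higher (Idi1) without a filter and 1 with DESeq2, and the median was -0.15 to 0.14. In A431 6 were higher, 15 to 21 lower and the median -0.20 to -0.16 (-0.20 without a filter). Calls summed over the comparisons were 17 to 23 for fatty acid synthesis, 7 to 11 for SREBP processing, 21 to 27 for uptake, 8 to 11 for LXR partners, 6 to 9 for oxysterols and 10 to 15 for isoprenoid use when a library was left out. The replicate numbers did not pair the libraries: of 13 pairs 2 had an r over 0.1 (-0.39 to 0.21, across genes), and 3 libraries matched best with their own number. With the replicate block KO SCC against WT SCC gave 11 higher and 1 lower, and no count moved by over 1.5 times. Where leaving out a library left 1 in a group, it was assumed to vary like the other groups. Low counts of Nr1h3 and Fdps limit their precision. The causes of these differences were not tested.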
